A study of Mus musculus with 20 samples.

Results

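Acyl-CoA synthetases activate a free acid by joining it to coenzyme A. The 7 genes described here encode the family members that act on medium chain acids (Acsm3, Acsm5 and Acsf2), on acetate (Acss1 and Acss2), on propionate (Acss3) and on malonate (Acsf3). They were chosen by gene symbol, with earlier results of these data known. All 7 were among the 25219 genes of the deposited table and passed the filter on low counts in every comparison. RNA was sequenced from inguinal white adipose tissue (iWAT) and brown adipose tissue (BAT) of male mice. Each tissue gave 5 libraries per genotype, Control and Ai-α4KO, which makes 20 in all. Ai-α4KO mice carried floxed alleles of α4, the phosphatase-binding protein encoded by Igbp1, together with Adiponectin-CreERT2, a Cre recombinase that is made in adipocytes and becomes active with tamoxifen. Control mice carried the floxed alleles without the Cre transgene, and the labels call them WT. Both genotypes were on a mixed C57Bl/6 background, received 5 injections of 100 mg/kg tamoxifen over 6 days from 2 months of age, and gave tissue 1 week after recombination. The labels number the libraries of a group from 1 to 5 but name no animal, so p-values measure the spread between libraries. They also do not say whether the same mice gave both tissues, and the comparisons between tissues treated the libraries of iWAT and BAT as independent.

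In adipocytes, cytosolic and nuclear ACSS2 makes acetyl-CoA from acetate for lipid synthesis and protein acetylation, alongside ATP citrate lyase, which makes it from citrate. Mitochondrial ACSS1 makes acetyl-CoA for oxidation, and mitochondrial ACSS3 makes propionyl-CoA, which propionyl-CoA carboxylase takes up. ACSM3, ACSM5 and ACSF2 are mitochondrial enzymes for medium chain acids. ACSF3 makes malonyl-CoA in mitochondria, where fatty acid synthesis supplies the precursor of lipoic acid.

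Total counts ran from 24023371 to 50384446 per library. The targeted gene Igbp1 had 39.7 ± 2.63 FPKM in Control and 6.95 ± 0.258 in knockout iWAT libraries, and 47.9 ± 2.30 against 10.1 ± 2.29 in BAT (SD, n = 5 each). FPKM is the count divided by transcript length and by library depth, and levels below are in that unit unless CPM is named. Brown adipocyte markers summed to between 7466 and 11590 CPM (counts scaled to a common library total) in Control BAT and to between 103.7 and 834.6 in Control iWAT. Their sums were lower in Ai-α4KO libraries, at 1374 to 2821 CPM in BAT, where 3 of 7 fell, and at 11.1 to 25.6 in iWAT, where 5 of the 6 tested fell. The other 4 did not pass the test described below in BAT. There Elovl3 (9.82 ± 8.90 FPKM in Control and 15.2 ± 10.95 in Ai-α4KO) and Dio2 (14.4 ± 6.39 and 23.3 ± 8.27) had higher means. Ppargc1a changed little (8.91 ± 3.02 and 9.77 ± 3.04), and Zic1 was lower (1.57 ± 0.548 and 1.095 ± 0.105). Adipocyte markers fell in Ai-α4KO libraries, 10 of 12 in iWAT (sums of 35610 to 49680 CPM in Control and 12820 to 18770 in Ai-α4KO) and 9 of 12 in BAT (35930 to 41470 and 15040 to 19140). All 7 macrophage markers tested rose in both tissues, from sums of 1156 to 2018 to sums of 6695 to 8876 CPM in iWAT and from 234.7 to 541.3 to 3916 to 6903 in BAT. In such bulk tissue, fewer cells of a type and less RNA per cell cannot be told apart.

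The genes lie on 5 chromosomes of the mm10 mouse genome named in the submitters' processing notes. Acsm3 (chr7:119760923-119784896) and Acsm5 (chr7:119526265-119543360) both lie on the plus strand of chromosome 7. Acss1 (chr2:150618111-150668240, minus strand) and Acss2 (chr2:155518043-155562743, plus strand) are on chromosome 2. Acss3 (chr10:106936164-107123664) and Acsf2 (chr11:94557102-94601786) are on minus strands, and Acsf3 (chr8:122775505-122817881) is on the plus strand.

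The 250 bases before the gene start as RefSeq places it were read from RefSeq promoter windows of build GRCm38.p6, which hold 6 of the 7 genes. For Acsf3 that start lies slightly upstream of the one given above, and for the other 5 both are the same. They are shown for the gene that fell most, Acsm3, and for the acetate enzymes Acss1 and Acss2, which differed in their response in iWAT. Capitals mark matches on either strand to CCAAT (the CCAAT box), GGGCGG (the GC box) or any other motif searched. The windows are chr7:119760673-119760922 on the plus strand, chr2:150668241-150668490 on the minus strand and chr2:155517793-155518042 on the plus strand.
Acsm3: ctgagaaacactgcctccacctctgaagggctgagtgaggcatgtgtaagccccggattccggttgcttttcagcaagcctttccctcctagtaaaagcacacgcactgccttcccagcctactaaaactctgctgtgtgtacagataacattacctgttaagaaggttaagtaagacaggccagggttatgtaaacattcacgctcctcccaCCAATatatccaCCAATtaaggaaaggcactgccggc
Acss1: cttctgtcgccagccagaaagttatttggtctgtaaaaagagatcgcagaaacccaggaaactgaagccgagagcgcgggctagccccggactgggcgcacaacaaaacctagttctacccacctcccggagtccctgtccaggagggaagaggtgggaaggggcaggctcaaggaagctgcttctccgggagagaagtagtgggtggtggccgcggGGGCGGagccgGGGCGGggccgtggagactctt
Acss2: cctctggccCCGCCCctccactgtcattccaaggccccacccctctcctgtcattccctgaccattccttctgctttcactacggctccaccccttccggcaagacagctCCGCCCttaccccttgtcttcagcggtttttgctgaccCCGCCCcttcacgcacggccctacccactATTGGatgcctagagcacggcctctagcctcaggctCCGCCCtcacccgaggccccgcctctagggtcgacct
The Acsm3 window holds 2 copies of CCAAT, the Acss1 window 2 copies of GGGCGG, and the Acss2 window 4 copies of GGGCGG in the opposite orientation and 1 of CCAAT. G and C made up 49.2% of the Acsm3 window, 61.6% of that of Acss1 and 64.0% of that of Acss2, beside a median of 52.4% over all 32851 windows. CCAAT stood in 4 of the 6 windows and in 33.8% of all windows, and GGGCGG in 3 of the 6 and in 32.7%. The E box CACGTG was found in the Acsm5 window alone among the 6 and in 6.02% of all windows. None of the 6 windows held AGGTCA, the core bound by nuclear receptors, which stood in 14% of all windows, or the longer TCAAGGTCA of the estrogen-related receptors, which contains that core (0.387% of all windows). The sterol regulatory element TCACNCCAC (1.05% of all windows) and the cAMP response element TGACGTCA (1.55%) were not among them either. The letters TATAAA of the core promoter (12.4%) were also in none of the 6.

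To ask how deletion of α4 in adipocytes changed these genes, Ai-α4KO libraries were tested against Control libraries of the same tissue in edgeR (quasi-likelihood, p-values adjusted over all genes tested after Benjamini and Hochberg). A gene was called at an adjusted p below 0.01 and a change of at least 2-fold. In iWAT, 6 of the 7 genes fell and none rose, where 10.7% of all 14604 genes tested were called lower and 11.3% higher. In BAT all 7 fell, where 13.3% of all 14344 genes were called lower and 18.2% higher. The median log2 fold change of the 7 genes was -2.48 in iWAT and -2.74 in BAT, beside 0.01 and -0.03 over all genes tested. None of the 7 had a log2 fold change above 0 in either tissue by edgeR, DESeq2 or limma. Their levels summed to 244.5 ± 28.9 FPKM in Control and 45.7 ± 7.89 in knockout iWAT libraries, and to 443 ± 90.3 against 91.1 ± 8.51 in BAT (SD, n = 5 each). Every Ai-α4KO library lay below every Control library for 6 of the 7 genes in iWAT and for all 7 in BAT, where 14.6% and 15.1% of all genes tested did so.

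**Figure D1:**
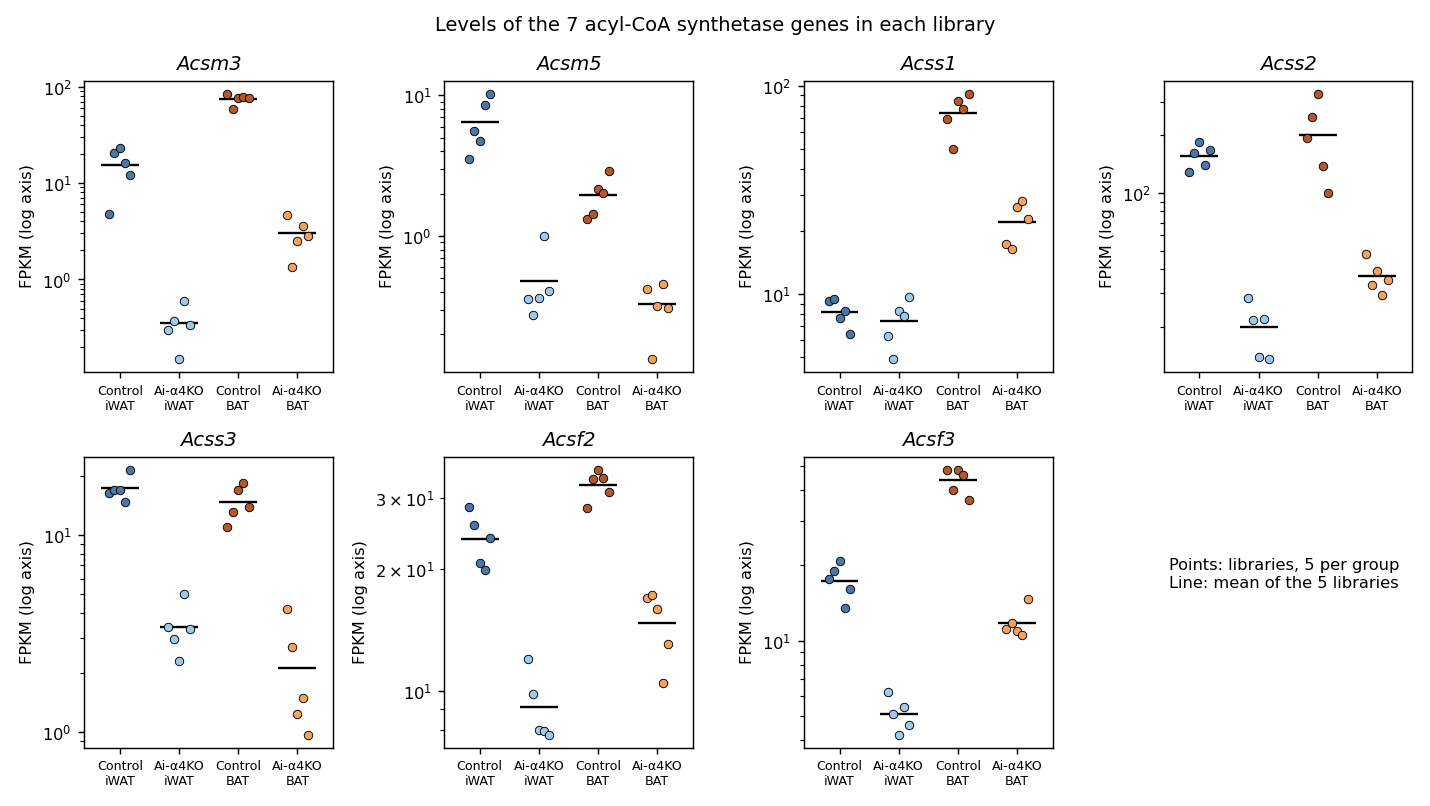
FPKM on a log axis for each of the 7 genes in the 4 groups, with a point for each of the 5 libraries and a line at their mean. The genotypes overlap for Acss1 in iWAT alone. Control iWAT library 1 lies below the others for Acsm3, at 4.74 FPKM.

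Acsm3, a mitochondrial medium chain enzyme, had the largest fall of the 7 in both tissues. The study that made these libraries had already named it among the top genes lowered in both. In Control iWAT its level was 4.74, 20.3, 23.05, 16.0 and 12.05 FPKM in libraries 1 to 5, and in Ai-α4KO iWAT 0.300, 0.373, 0.150, 0.596 and 0.338. The highest Ai-α4KO library was 7.96 times below the lowest Control library, although Control library 1 stood well under the other 4. The log2 fold change was -5.57 (standard error 0.50, adjusted p = 8.39e-06, edgeR), so that 2.10% of the Control level was left, the 8th lowest value of the 14604 genes. Without Control library 1 it was -5.87, and with limma on log2(FPKM + 1) and log2(FPKM + 0.1), which shrink changes of low genes, -3.44 and -4.98.

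Control BAT held more Acsm3, at 83.4, 58.8, 75.5, 77.9 and 76.2 FPKM, and Ai-α4KO BAT held 4.67, 1.34, 2.53, 3.62 and 2.86. These groups did not come near each other, with the lowest Control library 12.6 times above the highest Ai-α4KO library. The fall measured -4.89 on the log2 scale (standard error 0.30, adjusted p = 1.19e-07, edgeR), with 3.37% left and the 7th lowest value of 14344 genes, and -4.29 with limma on log2(FPKM + 1). The Control libraries were tighter in BAT, with a coefficient of variation of 12.4% against 47.3% in iWAT.

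Acsm5, a medium chain gene on the same chromosome as Acsm3, was the lowest of the 7 in Control iWAT and in both BAT groups. Its level in Control iWAT was 3.52, 5.60, 4.70, 8.49 and 10.2 FPKM, and in Ai-α4KO iWAT 0.355, 0.276, 0.366, 1.008 and 0.408. Ai-α4KO library 4 stood above the other 4 but still under every Control library. The change of Acsm5 was -3.86 on the log2 scale (standard error 0.43, adjusted p = 2.64e-05, edgeR), and -2.28 with limma on log2(FPKM + 1).

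In Control BAT the level of Acsm5 was 1.32, 1.44, 2.16, 2.02 and 2.90 FPKM, and in Ai-α4KO BAT 0.424, 0.134, 0.319, 0.457 and 0.309. The groups again did not overlap, and the log2 fold change was -2.83 (standard error 0.34, adjusted p = 2.06e-05, edgeR). It was -1.14 with limma on log2(FPKM + 1) and -3.43 with the skeletal muscle score in the fit, and was called in both. These are small counts, down to 13 reads in an Ai-α4KO library. The other medium chain paralogs Acsm1, Acsm2 and Acsm4 reached at most 0.0161 FPKM in any group mean and were not tested.

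Acss1, the mitochondrial acetate enzyme, was the gene that did not pass the test in iWAT. Its level was 9.25, 9.48, 7.69, 8.27 and 6.43 FPKM in Control iWAT, while the knockout libraries held 6.29, 4.88, 8.32, 7.83 and 9.67. The genotypes overlapped over most of their range. The log2 fold change was -0.28 (standard error 0.18, adjusted p = 0.196, edgeR).

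Acss1 was far higher in Control BAT, at 69.6, 49.7, 84.7, 77.2 and 91.2 FPKM, beside 17.4, 16.5, 26.2, 28.02 and 22.9 in Ai-α4KO BAT. The lowest Control library was 1.78 times above the highest Ai-α4KO library. The log2 fold change in BAT was -1.99 (standard error 0.22, adjusted p = 9.07e-06, edgeR), with 25.1% of the Control level left. Ai-α4KO BAT libraries thus still held more Acss1 than any iWAT library of either genotype.

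Acss2, the cytosolic and nuclear acetate enzyme, was the most abundant of the 7 in every group. Its level in Control iWAT was 128.7, 162.4, 183.7, 139.3 and 166.8 FPKM, and in Ai-α4KO iWAT 28.3, 21.7, 13.9, 21.8 and 13.6. The groups stood far apart, and the log2 fold change was -3.12 (standard error 0.23, adjusted p = 3.52e-06, edgeR), with 11.5% left.

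Control BAT libraries varied widely in Acss2, at 192.7, 250.3, 327.5, 137.5 and 99.7 FPKM, while Ai-α4KO BAT libraries held 48.2, 33.0, 38.97, 29.3 and 34.9. The spread of the Control libraries was 3.29-fold from lowest to highest, and the lowest was still 2.07 times above the highest Ai-α4KO library. Acss2 had a log2 fold change of -2.74 in BAT (standard error 0.30, adjusted p = 9.75e-06, edgeR).

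Acss3, the propionate enzyme, had much the same level in both Control tissues. It was at 16.4, 16.85, 16.96, 14.75 and 21.4 FPKM in Control iWAT, while the knockout libraries held 3.42, 2.95, 2.30, 4.99 and 3.32. BAT libraries held 10.97, 13.05, 17, 18.3 and 13.9 FPKM in Control mice, against 4.23, 2.71, 1.23, 1.48 and 0.971 in Ai-α4KO mice. Neither tissue showed overlap, although the Ai-α4KO BAT libraries spread over 4.36-fold. The log2 fold change was -2.48 in iWAT (standard error 0.20, adjusted p = 4.12e-06, edgeR) and -3.08 in BAT (standard error 0.35, adjusted p = 1.09e-05, edgeR), the latter -2.40 with limma on log2(FPKM + 1).

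Acsf2, the third medium chain enzyme, had the smallest fall in BAT and the smallest of the called falls in iWAT. Control iWAT libraries ran from 19.96 to 28.6 FPKM (median 23.9) and Ai-α4KO iWAT libraries from 7.80 to 12 (median 8.02). Control BAT libraries ran from 28.3 to 35.2 (median 33.4) and Ai-α4KO BAT libraries from 10.45 to 17.3 (median 16.0). The groups were apart in each tissue, and the log2 fold change was -1.51 in iWAT (standard error 0.14, adjusted p = 9.50e-06, edgeR) and -1.41 in BAT (standard error 0.13, adjusted p = 2.39e-06, edgeR).

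Acsf3, the malonate enzyme, had even levels within all 4 groups, with coefficients of variation of 11.9% to 16.0%, the lowest of the 7 genes in both Ai-α4KO groups but not in the Control groups. Control iWAT libraries ran from 13.5 to 20.8 FPKM (median 17.6) and Ai-α4KO iWAT libraries from 4.22 to 6.24 (median 5.07). Control BAT libraries ran from 36.3 to 48.1 (median 45.9) and Ai-α4KO BAT libraries from 10.49 to 14.7 (median 11.2). No group overlapped another of its tissue, and the log2 fold change was -1.91 in iWAT (standard error 0.16, adjusted p = 5.56e-06, edgeR) and -2.15 in BAT (standard error 0.13, adjusted p = 1.13e-07, edgeR).

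**Figure D2:**
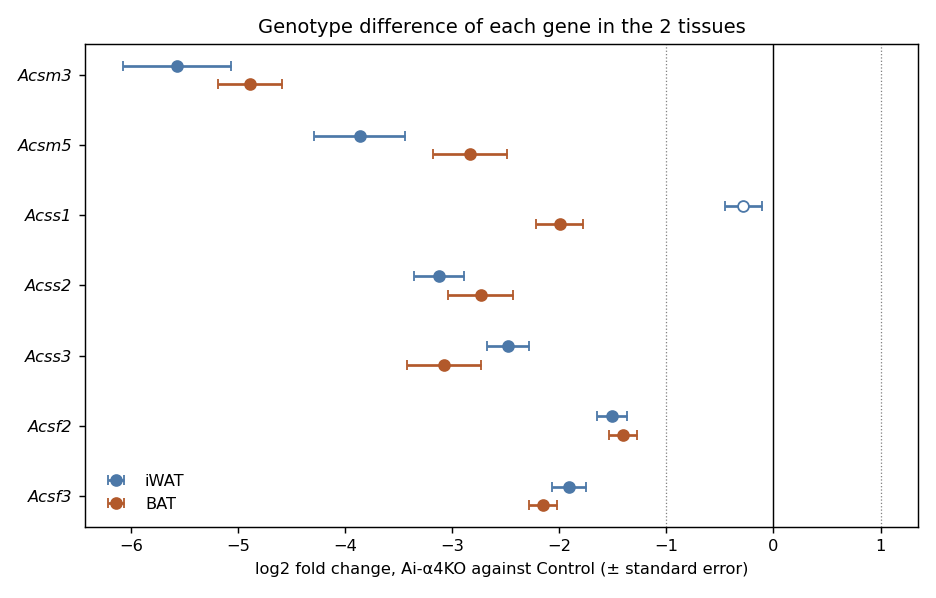
Log2 fold change of Ai-α4KO against Control for each gene, with its standard error, in iWAT and BAT. Filled points passed the test and dotted lines mark a 2-fold change. The open point is Acss1 in iWAT, at -0.28.

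Markers of other cells moved with genotype in some libraries, and the B cell and muscle scores entered fits of the members. B cell markers summed to 476.8 and 191.8 CPM in Control iWAT libraries 1 and 4 and to at most 12.2 in every other library. When the B cell score entered the fit the same 6 genes fell in iWAT, from -1.52 for Acsf2 to -6.05 for Acsm3, and Acss1 stood at -0.21 (adjusted p = 0.414, edgeR). Without those libraries 6 again fell, in a setting that was chosen after seeing the data. Skeletal muscle markers summed to between 981.8 and 9969 CPM in Control BAT and between 13410 and 44260 in Ai-α4KO BAT, with 6 of 8 called higher. When the muscle score entered the fit all 7 genes fell in BAT, from -1.40 for Acsf2 to -4.83 for Acsm3. The muscle sums of the genotypes did not overlap in BAT, so this fit cannot fully separate muscle content from genotype. In iWAT no muscle marker was called, but the markers summed to 7440 CPM in Control library 4 and 5181 in Ai-α4KO library 1, and to at most 190.9 in the others. Without those 2 libraries, in a setting also chosen after seeing the data, the same 6 genes fell in iWAT, from -1.69 for Acsf2 to -5.51 for Acsm3, and Acss1 stood at -0.23 (adjusted p = 0.349, edgeR).

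Endothelial markers fell along with the members, 2 of 4 in iWAT (sums of 339.4 to 449.4 CPM in Control and 185.5 to 228.5 in Ai-α4KO) and 3 of 4 in BAT (628.9 to 891 and 233.5 to 305). Neutrophil markers rose, 2 of the 3 tested in iWAT (13.6 to 69.3 CPM in Control and 88.6 to 323.8 in Ai-α4KO) and all 3 in BAT (9.94 to 33.4 and 157.1 to 280.3). Stromal marker sums did not overlap in BAT (835.4 to 1650 CPM in Control and 2811 to 4376 in Ai-α4KO, 1 of 5 called higher), nor did those of T cell markers (1.74 to 3.35 and 11.8 to 46.9, 2 of 4 called higher), while in iWAT no gene of either list was called and the sums overlapped. Epithelial markers summed to between 19.5 and 81.04 CPM in Control iWAT libraries 1 and 4 and Ai-α4KO iWAT libraries 1 and 2 and to at most 1.05 in the other iWAT libraries. None of these lists, nor the brown adipocyte or macrophage markers, entered a fit, and their part in the members' changes was not tested.

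The difference between the genotype effects in the 2 tissues was tested as an interaction over all 20 libraries, at an adjusted p below 0.01. Acss1 was the only gene of the 7 called, where 4.86% of 15230 genes were called. Its effect in BAT was 1.68 log2 units below that in iWAT (difference -1.68, standard error 0.29, adjusted p = 0.00117, edgeR). For the other 6 genes the difference ran from -0.56 for Acss3 to 1.06 for Acsm5, with adjusted p from 0.185 to 0.673 (edgeR). Without Ai-α4KO iWAT library 4 that of Acsm5 was 1.63 (adjusted p = 0.0343, edgeR). That of Acss3 was -0.28 without Ai-α4KO BAT library 5 and -0.84 without Ai-α4KO BAT library 1, and none of these was called. The standard error was 0.54 for Acsm5 and 0.53 for Acsm3, so differences of that order were not detectable for them. Among the other acyl-CoA synthetases tested, Acsl5, a long chain enzyme, was called in the same direction as Acss1 (-2.48, adjusted p = 9.88e-05, edgeR).

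The members were next set against adipocyte markers, because these fell in the same libraries (median log2 fold change -1.78 in iWAT and -2.001 in BAT over 12 markers). Each library was scaled to the geometric mean of the counts of the 12 markers, and the same test was run. Of the markers themselves, 1 was called lower and 1 higher in iWAT, and 1 lower and 2 higher in BAT. A member called lower thus fell more than the mean of the markers, not more than each of them. On this scale the median of all genes was 1.81 in iWAT and 1.72 in BAT, so 77.4% and 78.1% of genes were called higher and 0.63% and 0.607% lower. Acsm3 was lower than the markers in both tissues, at -3.86 in iWAT (standard error 0.43, adjusted p = 9.27e-07, edgeR) and -3.18 in BAT (standard error 0.29, adjusted p = 5.84e-09, edgeR).

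In iWAT, Acsm5 and Acss2 were also called lower on the adipocyte scale, at -2.09 (adjusted p = 4.12e-05, edgeR) and -1.39 (adjusted p = 4.03e-05, edgeR), which made 3 of the 7. In BAT the 3 called lower were Acsm3, Acss3 at -1.46 (adjusted p = 4.23e-05, edgeR) and Acss2 at -1.05 (adjusted p = 0.00437, edgeR). The Acss2 call in BAT lay near the 2-fold line and was lost with Lep, Cfd and Retn left out of the markers (-0.81). It was also lost with the replicate block described below. Without single libraries it was also lost, at -0.85 without Control library 2, -0.86 without Control library 3, -0.98 without Ai-α4KO library 1 and -1.02 without Ai-α4KO library 2.

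Acsf2 and Acsf3 were not called on this scale in either tissue. Acsf2 stood at 0.26 in iWAT and 0.31 in BAT, and Acsf3 at -0.16 and -0.38, with adjusted p from 0.163 to 0.549 (edgeR). Without Ai-α4KO BAT library 5 Acsf3 moved to -0.58 in BAT (adjusted p = 0.0428, edgeR), and without Control iWAT library 3 to 0.0008 in iWAT. It was called in neither. Acss3 in iWAT was at -0.72 (adjusted p = 0.00508, edgeR), which is under 2-fold, and Acsm5 in BAT at -1.07 (adjusted p = 0.013, edgeR). The latter was called under some other settings given below, among them the replicate block. Acss1 rose against the markers in iWAT, at 1.54 (standard error 0.31, adjusted p = 2.05e-04, edgeR), and stood at -0.17 in BAT (adjusted p = 0.571, edgeR). No member rose in BAT, where the 1 value above 0, Acsf2, had an unadjusted p of 0.192 in edgeR. The iWAT value of Acss1 was below the median of all genes on that scale, and 37.0% of genes lay at or under it. The part of adipocyte number in these changes was not tested.

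**Figure D3:**
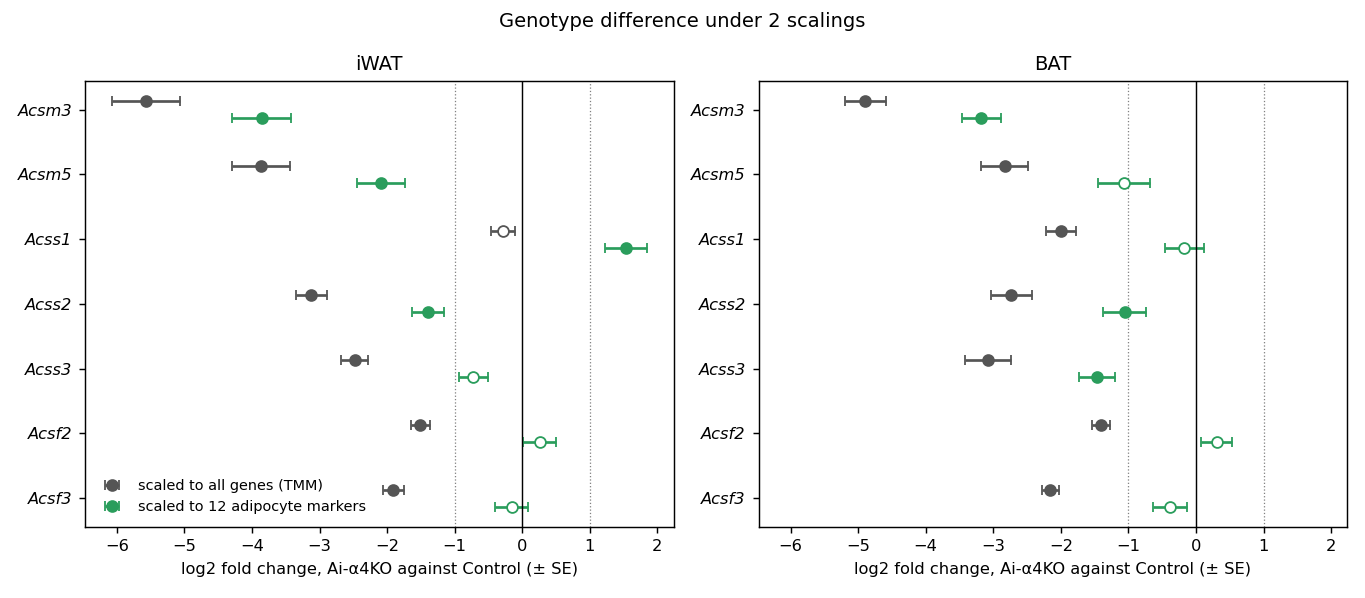
Log2 fold change of Ai-α4KO against Control with its standard error, in iWAT (left) and BAT (right), scaled to all genes (grey) or to 12 adipocyte markers (green). Filled points passed the test. Acsm3 stays below -3 on both scales in both tissues, while Acsf2 and Acsf3 lie within 0.38 log2 units of 0 on the adipocyte scale.

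Control BAT and Control iWAT were compared to see how the genes differ between the tissues without the deletion. Acsm3, Acss1 and Acsf3 were called higher in BAT, and Acsm5 lower, where 7.22% of 14260 genes were called higher and 14.7% lower. Acss1 had the largest difference, at 3.36 on the log2 scale (standard error 0.18, adjusted p = 1.24e-06, edgeR), which is 10.2-fold. Acsm3 was 2.44 higher (standard error 0.36, adjusted p = 0.00022, edgeR) and Acsf3 1.495 higher (standard error 0.16, adjusted p = 2.36e-05, edgeR). Acsm5 stood at -1.54 (standard error 0.31, adjusted p = 0.00148, edgeR), so the medium chain paralogs of chromosome 7 differed between tissues in opposite directions. Acsf2 was at 0.62 (adjusted p = 0.000735, edgeR), under 2-fold. Acss2 at 0.55 (standard error 0.30, adjusted p = 0.147, edgeR) and Acss3 at -0.06 (standard error 0.16, adjusted p = 0.75, edgeR) did not pass. Acss2 moved to 0.29 without Control BAT library 3 and to 0.75 without Control BAT library 5, and was called in neither.

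In Ai-α4KO mice, Acsm3 (3.25), Acss1 (1.76), Acsf3 (1.36) and Acss2 (1.04) were called higher in BAT than in iWAT on the log2 scale, with adjusted p from 0.000112 to 0.00285 (edgeR), and Acsm3 stood at 1.51 with limma on log2(FPKM + 1). None was called lower by edgeR, DESeq2 or limma or had an unadjusted edgeR p below 0.05 in that direction, and over all 14703 genes 8.4% were called higher and 3.09% lower. The Acss2 call was near the 2-fold line and was lost under 5 of the other settings, among them the upper-quartile scaling (0.97). It was also lost without Ai-α4KO iWAT library 3 (0.94), without Ai-α4KO iWAT library 5 (0.93) and without Ai-α4KO BAT library 1 (0.96). Acsm5 was at -0.39 (adjusted p = 0.514, edgeR), Acss3 at -0.55 (adjusted p = 0.244, edgeR) and Acsf2 at 0.83 (adjusted p = 0.00186, edgeR), under 2-fold. Acsm5 turned to 0.07 without Ai-α4KO iWAT library 4, and Acss3 moved to -0.92 without Ai-α4KO BAT library 1 (adjusted p = 0.0361, edgeR). Neither was called.

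**Figure D4:**
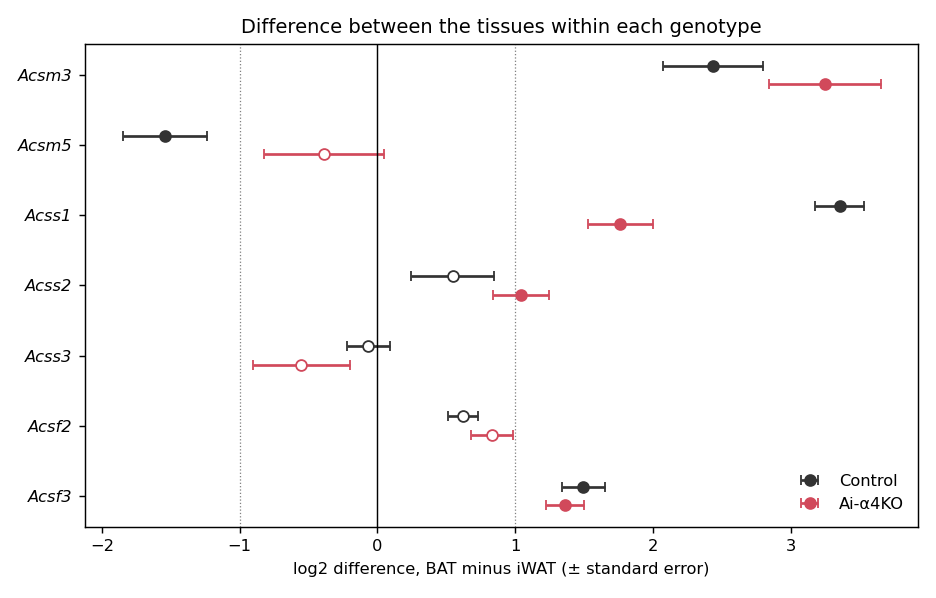
Log2 difference of BAT minus iWAT for each gene, with its standard error, within Control and within Ai-α4KO. Filled points passed the test and dotted lines mark a 2-fold difference. Acss1 moves from 3.36 in Control to 1.76 in Ai-α4KO.

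Levels per transcript length put Acss2 first in each of the 4 groups, with no overlap with the next gene. It made up 63.9% of the summed mean FPKM of the 7 genes in Control iWAT, 43.4% in Ai-α4KO iWAT, 45.5% in Control BAT and 40.5% in Ai-α4KO BAT. In Control iWAT the next genes were Acsf2 (23.8 ± 3.55 FPKM), Acsf3 (17.4 ± 2.78), Acss3 (17.3 ± 2.46), Acsm3 (15.2 ± 7.201), Acss1 (8.22 ± 1.24) and Acsm5 (6.49 ± 2.76), and the libraries of each overlapped with those of the next. In Control BAT, Acss1 (74.5 ± 16.0) and Acsm3 (74.4 ± 9.24) overlapped and stood above Acsf3 (43.7 ± 5.21), Acsf2 (32.3 ± 2.71), Acss3 (14.7 ± 2.98) and Acsm5 (1.97 ± 0.633), which did not overlap with each other.

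The order was different in Ai-α4KO libraries. Acsm3 went from 5th to last in iWAT, at 0.351 ± 0.161 FPKM, where it overlapped with Acsm5 (0.483 ± 0.297). In BAT it went from 3rd to 5th, at 3.003 ± 1.24, where it overlapped with Acss3 (2.12 ± 1.35). Acss1 was 6th in Control iWAT and 3rd in Ai-α4KO iWAT, where it overlapped with Acsf2 above it and Acsf3 under it. Its own mean did not rise (8.22 ± 1.24 and 7.40 ± 1.85 FPKM), while its share of the sum of the 7 genes was 3.36% without and 16.2% with the deletion. In BAT its share was 16.8% and 24.4%. Of the iWAT sum, Acsm3 made up 6.23% in Control libraries but 0.768% with the deletion.

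**Figure D5:**
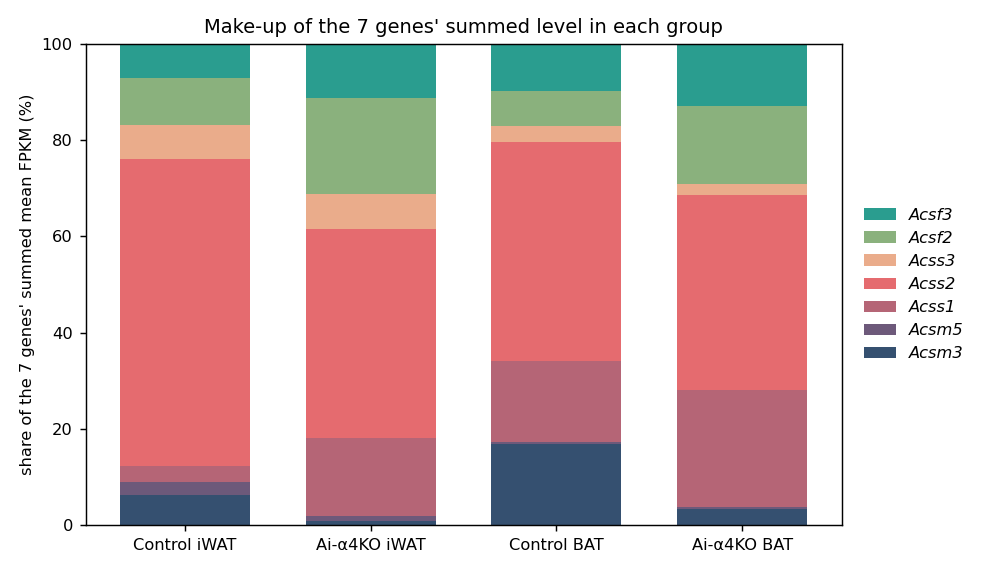
Share of the summed mean FPKM of the 7 genes taken by each gene, as stacked bars from 0 to 100% for the 4 groups. Acss2 is the largest part of each bar, and the Acss1 part is larger and the Acsm3 part smaller in the Ai-α4KO bars than in the Control bars of the same tissue.

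Genes whose levels most resembled each member were taken by Pearson's r of log2 CPM over the 20 libraries among 15221 genes. The 20 points share tissue and genotype within their groups, so r is a description and carries no test. Acsm3 was most like Hibch (r = 0.992), Echs1 (0.991) and Suclg2 (0.989), mitochondrial enzymes of valine breakdown, β-oxidation and the citrate cycle. Their falls were shallower than that of Acsm3, with log2 fold changes of -1.997, -1.95 and -1.52 in iWAT. Acss2 was most like Acaca (0.988), Msra (0.981) and Fasn (0.979), of which Acaca and Fasn make fatty acids from acetyl-CoA and had larger falls than Acss2, at -4.17 and -4.26 in iWAT.

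Acsf3 had the closest match of all, Tmem79 (r = 0.996), followed by Txnrd2 (0.994) and Sirt3 (0.993), which encode a mitochondrial thioredoxin reductase and a mitochondrial deacetylase. Acsm5 was most like Lgals12 (0.980), Negr1 (0.971) and Cd1d1 (0.970). Acss3 was most like 4930402H24Rik (0.989), Aco1 (0.987) and Aplp2 (0.983), and Acsf2 like Sorcs2 (0.974), Lonp1 and Fam149b (both 0.970). Acss1 was most like A530065N20Rik (0.975), Atxn2 (0.968) and A530050N04Rik (0.967). Between members, r was highest for Acsm3 with Acsf3 (0.969) and lowest for Acsm5 with Acss1 (0.147).

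Genes that make or use the same metabolites were counted in lists, to be read beside the shares of all genes called lower (10.7% in iWAT and 13.3% in BAT) and higher (11.3% and 18.2%). Of 9 partners of acetate and acetyl-CoA, 5 fell and none rose in iWAT, and 6 fell and 1 rose in BAT, with a median log2 fold change of -2.26 and -2.44. Among these, Acaca and Acacb, the acetyl-CoA carboxylases, were at -4.17 and -3.81 in iWAT, and Acacb and Sirt3, a deacetylase that activates acetyl-CoA synthetase in mitochondria, at -2.79 and -2.44 in BAT. The DESeq2 and limma tests each called 1 of the 9 higher in iWAT, where edgeR called none and 3 were higher at an unadjusted p below 0.05. For the 2 acetate enzymes themselves, Acss2 fell in both tissues and Acss1 in BAT.

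The 7 genes found for the propionate pathway downstream of Acss3 were all tested, and 5 fell and none rose in each tissue (median -1.42 in iWAT and -1.36 in BAT). Pcca and Pccb, the propionyl-CoA carboxylase subunits, were at -2.03 and -2.08 in iWAT and -2.32 and -2.16 in BAT, beside -2.48 and -3.08 for Acss3. Of 9 genes of mitochondrial fatty acid and lipoic acid synthesis, the pathway of Acsf3, 6 fell in iWAT and 5 in BAT, and none rose. Mcat and Mecr, an acyltransferase and a reductase of that pathway, were at -1.41 and -1.47 in iWAT and -1.69 and -2.02 in BAT, beside -1.91 and -2.15 for Acsf3. In neither of these lists was a gene higher at an unadjusted p below 0.05 in edgeR, or called higher by DESeq2 or limma.

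Of 11 genes of medium and short chain β-oxidation, which take up the products of the medium chain enzymes, 9 fell in iWAT and 10 in BAT, and none rose by edgeR, DESeq2 or limma, or at an unadjusted p below 0.05 in edgeR. Echs1 and Acads, a hydratase and a dehydrogenase of short chain acyl-CoA, were at -1.95 and -2.03 in iWAT and -2.22 and -2.48 in BAT. Of 12 targets of SREBP, the factors that switch on lipid synthesis genes and of which Acss2 is a known target, 5 fell in iWAT and 4 in BAT, and none rose. Elovl6 and Fasn were at -3.39 and -4.26 in iWAT and -2.31 and -3.26 in BAT, while the median of the list was -0.36 and -0.51. At an unadjusted p below 0.05 in edgeR, 1 of the 12 was higher in iWAT and 3 in BAT, where DESeq2 and limma each called 1.

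Of 18 other acyl-CoA synthetases, 12 were tested in iWAT, of which 4 fell and 2 rose, and 13 in BAT, of which 5 fell and 2 rose. Those called lower in both tissues were Acsl1 (-1.56 and -1.48), Slc27a1 (-2.35 and -1.30), Slc27a2 (-5.09 and -2.94) and Aacs (-2.68 and -2.11), and Acsl5 was lower in BAT (-2.05). Aacs encodes the enzyme that activates acetoacetate, and the others act on long or very long chain acids. Those called higher were Acsl4 (1.07) and Slc27a3 (1.17) in iWAT, and Acsl6 (2.34) and Slc27a6 (1.26) in BAT. In BAT, Acsl4 (0.86, adjusted p = 0.000124, edgeR) and Slc27a3 (0.985, adjusted p = 0.00474, edgeR) were also higher, but under 2-fold. Acsl6 was not tested in iWAT, and Slc27a6 was not called there (0.48). Both were low in BAT, with Control and Ai-α4KO means of 0.207 and 1.24 FPKM for Acsl6 and 0.0893 and 0.259 for Slc27a6. Acsl3, Slc27a4, Acsbg1 and Aasdh were tested and called in neither tissue, with values from -0.92 for Aasdh in BAT to 0.08 for Acsl3 in BAT. Of 10 acyl-CoA thioesterases tested, which split acyl-CoA back into acid and coenzyme A, 1 fell in iWAT and 3 in BAT, and none rose by edgeR, DESeq2 or limma, with 2 higher in iWAT at an unadjusted p below 0.05 in edgeR and 0 in BAT. The iWAT count is close to the 10.7% of all genes called lower there. Acot2, a mitochondrial thioesterase, was at -1.30 in iWAT and -1.96 in BAT. Acot11, a thioesterase of long chain acyl-CoA in brown fat, was at -3.26 in BAT (adjusted p = 4.34e-06, edgeR) and at -0.98 in iWAT, where it was not called (adjusted p = 0.0758, edgeR). Its difference between the tissues, at -2.25 (adjusted p = 0.0133, edgeR), did not pass at an adjusted p below 0.01.

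Genes next to the members were checked because overlapping genes can share reads. The libraries were made with a stranded kit, and the strand setting used in counting was not given in the sources used here. Eri2 overlaps the end of Acsm3 by 1071 bases on the opposite strand and was at -0.31 in iWAT (adjusted p = 0.115, edgeR) and -1.003 in BAT (adjusted p = 2.49e-05, edgeR). Its mean was 4.38 FPKM in Control BAT, where Acsm3 had 74.4, so its own change is uncertain. E130215H24Rik overlaps the start of Acss1 by 747 bases on the opposite strand at no more than 0.191 FPKM in any group, Acss2os within Acss2 was listed at 0, and Chad within Acsf2 had at most 0.0278.

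Within 50 kb of the members lay 22 other genes, of which 12 were tested in iWAT (2 fell and 2 rose) and 13 in BAT (3 fell and 4 rose). The share of all genes called lower was 10.7% in iWAT and 13.3% in BAT, and of those called higher 11.3% and 18.2%. Near Acsm3, 2610020H08Rik fell by 1.54 in iWAT and by 2.13 in BAT on the log2 scale, while Thumpd1 stood at 0.12 and 0.23 and was not called. Apmap, an adipocyte membrane protein gene 9588 bases from Acss1, fell in both tissues, at -1.77 in iWAT, where Acss1 was at -0.28, and at -1.27 in BAT. Eme1, a DNA repair nuclease gene near Acsf2, rose in both tissues, at 2.49 and 2.57. Mycbpap, also near Acsf2, rose in iWAT (1.64), and Cst7 near Acss1 (4.055), Myh7b near Acss2 (2.06) and Cdh15 near Acsf3 (2.30) rose in BAT. Each of these 5 genes was low, at a mean of at most 1.69 FPKM in any group. Gss, which ends 438 bases from Acss2 and encodes glutathione synthetase, was at 0.73 in iWAT (adjusted p = 7.00e-04, edgeR), under 2-fold, and at 0.32 in BAT (adjusted p = 0.17, edgeR).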

How the data were processed

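The authors deposited an expected count, an estimated number of reads, and an FPKM value for each of 25219 genes and 20 libraries. Submitters' notes name mm10 and STAR 2.5.3a, while the counting tool was not given in the sources used here. Expected counts were rounded, filtered by filterByExpr, normalized by TMM and tested by quasi-likelihood in edgeR 4.0.16 (R 4.3.3), fitted within each pair of groups without covariates. The interaction used all 20 libraries. Log2 CPM had a prior count of 2. Log2 fold changes by TMM differed from log2 ratios of mean FPKM by a median of -0.13 in iWAT and -0.27 in BAT. Alternatives were DESeq2 1.42.0, limma 3.58.1 on log2 FPKM with pseudocounts of 1 and 0.1, other scalings, filters and thresholds, marker covariates, a replicate block and leaving out each library. On simulated counts with 200 changed genes, edgeR recovered 186 of them in iWAT and 196 in BAT. Totals of 24023371 to 50384446 counts set the precision. Members, lists and tests were chosen with earlier results of these data known. Named genes are all members, per list the 2 genes with the smallest adjusted p called in each tissue, all tested members of the other acyl-CoA synthetase list, the 3 genes most like each member, genes overlapping or within 50 kb of a member, and Igbp1. Acsm1, Acsm2 and Acsm4 were at or near 0. Protein sequences were not used here.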

Additional observations from a re-analysis of the deposited data

Results flagged for a closer look

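For Acss1 the genotype effect in BAT minus that in iWAT was -1.68 on the log2 scale, and the test of this difference between tissues passed (adjusted p = 0.00117, edgeR). Over the alternatives the difference ran from -1.82 to -1.47, and it was -1.62 without both muscle-rich iWAT libraries (adjusted p = 0.00295, edgeR). Acsm5 in Ai-α4KO iWAT library 4, at 1.008 FPKM, stood apart from the other 4 libraries of its group, which reached at most 0.408. It was the only one of 28 groups of 5 libraries with such a value, and chance flags about 1 in 20. Without that library the log2 fold change of Acsm5 in iWAT was -4.33.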

How the results depend on the processing

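Of the counts of called members, all stayed within 1.5 times of their value under every alternative run. In iWAT 6 and in BAT 7 members fell under each of them, and none rose. Correlations of same-numbered deviations spanned -0.45 to 0.14 between genotypes in iWAT and -0.15 to 0.21 in BAT. Between tissues they spanned -0.08 to 0.22 in Control and -0.26 to 0.24 in Ai-α4KO mice. There 2 of 5 libraries in each genotype correlated best with their own number. The shared numbers thus gave no clear pairs, but so few libraries cannot exclude that the same mice gave both tissues. With a replicate block 6 members fell in iWAT, 7 in BAT and 1 differed between tissues. The block changed the calls of 2 members on the adipocyte scale in BAT, where Acsm5 was called (-1.16, adjusted p = 0.00888, edgeR) and Acss2 was not (-0.91, adjusted p = 0.0102, edgeR), and no other call. Of the values of single members, with leaving out libraries counted as a lowest and a highest value that both count as changed if any 1 library changed the call, 543 kept their call and, where called, their direction, 11 lost a call and 6 gained one, all for Acss2 between Ai-α4KO tissues and for Acss2 and Acsm5 on the adipocyte scale in BAT. Acss2 between Ai-α4KO tissues was at 0.88 without normalization factors, 0.97 with upper-quartile scaling, 0.89 and 0.93 with limma on log2(FPKM + 1) and log2(FPKM + 0.1) and 0.996 in one fit of all 20 libraries, each with adjusted p under 0.01 and under 2-fold. Acsm5 on the adipocyte scale in BAT was called with at least 10 counts in every library, at an adjusted p below 0.05, in one fit of all 20 libraries and without Ai-α4KO library 4 (-1.37). Counts of members lower on that scale in BAT ran from 2 to 4 when single libraries were left out, and counts of members higher in Ai-α4KO BAT than iWAT from 3 to 4. Without normalization factors the median log2 fold change of all genes was 0.13 in iWAT (0.01 with TMM) and 0.23 in BAT (-0.03 with TMM). The pseudocount moved low genes most, and with log2(FPKM + 1) the tissue difference of Acsm3, called in neither setting, changed sign to -0.85. Order of levels by CPM per kb was the same for all 28 gene and group ranks. The cause of these changes was not tested.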
